A study of Mus musculus with 6 samples.

Results

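Polyamines (putrescine, spermidine and spermine) are small positively charged molecules that bind RNA and DNA and are needed in large amounts by dividing cells. Ornithine decarboxylase makes putrescine, S-adenosylmethionine decarboxylase supplies the aminopropyl groups, and a synthase for each product then makes spermidine and spermine. Antizyme proteins bind ornithine decarboxylase and send it to the proteasome, antizyme inhibitor takes antizyme away from it, and an acetyltransferase marks spermidine and spermine for export or oxidation. Spermidine also donates part of itself to a lysine of the translation factor eIF5A, which is thereby turned into hypusine, a residue that the factor needs to help ribosomes through difficult stretches of mRNA. The genes of synthesis are textbook targets of the MYC transcription factor.

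The genes described here are the 10 genes of these steps, Odc1, Amd1, Srm, Sms, Azin1, Oaz1, Oaz2, Sat1, Dhps and Dohh, chosen by symbol. All 10 were among the 21135 genes listed, and all 10 passed a filter at a mean of 10 normalised reads. RNA was sequenced from DN3 thymocytes, the CD4- and CD8-negative mouse thymocytes that rearrange the T-cell receptor beta gene. The 6 libraries came from C57BL/6 mice, 3 of them wild type for NMe, a distal enhancer of Myc bound by Notch1, and 3 homozygous for mutations of GATA sites 1 and 2 within NMe. The labels give no age, sex or treatment for either group, and do not say whether the 3 libraries of a group came from separate animals. The comparison asks how transcripts of the polyamine pathway differ where these enhancer sites are mutated.

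The libraries held 38591038 to 51306934 reads assigned to genes. Myc, the gene that the enhancer serves, was lower in every mutant library (4612 to 6165 normalised reads) than in every wild-type library (18041 to 20196), with a log2 change of -1.82. All 7 DN3 markers examined were present in all 6 libraries, and their summed level was higher in the mutant (237249 to 268428 normalised reads against 156315 to 175006). The markers did not move together: Il2ra, Notch1, Cd3e and Dtx1 were higher in every mutant library than in any wild-type library, Ptcra and Rag2 overlapped between genotypes, and Rag1 was lower in the mutant without overlap (6363 to 7632 against 9968 to 10557). The 4 markers of earlier double-negative cells (Kit, Cd44, Spi1 and Bcl11a) summed to 3690 to 4482 normalised reads in the wild type against 2263 to 3214 in the mutant, so that they were lower in the mutant with no overlap. The sum of NK-cell markers (2 of 3 listed, almost all of it Nkg7) was higher in the mutant. It was 4415 to 7253 in the wild type against 9193 to 18048 in the mutant. Klrb1c, the other listed marker, overlapped between genotypes (6.68 to 55.1 against 3.31 to 176.6), and Ncr1 was not listed. The 4 double-positive markers summed to 555 to 685 in the wild type against 799 to 1317 in the mutant. Sums of B-cell (2 of 4 listed), myeloid (3 of 4) and epithelial (2 of 4) markers overlapped between genotypes. Erythroid markers (3 of 4 listed) reached 6509 normalised reads in wild type replicate 2 and at most 53.8 elsewhere. The part of these differences between cells in the results was not tested, and in bulk RNA fewer cells of a type and less RNA per cell cannot be told apart.

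Of the 10 genes, the 4 enzymes that build polyamines were all lower in the mutant, and the other 6 were not called. With limma's test over all 17815 genes and an adjusted p under 0.05, 4 of the 10 genes were lower, beside 10.9% of all tested genes, and 0 were higher, beside 7.94%, which makes 4 of 10 changed beside 18.8%. The shares of all genes lean on the scaling: 1938 were lower and 1414 higher as deposited, and 1647 lower and 1827 higher with equal library totals. At an unadjusted p under 0.05 limma gave 5 lower and 1 higher, beside 17.5% and 15.9% of all tested genes. Both edgeR and DESeq2 called 4 lower and 0 higher, beside 10.2% and 8.2% of all tested genes with edgeR and 13.3% and 11.1% of the 17094 genes to which DESeq2 gave an adjusted p. The libraries of the 2 genotypes did not overlap, with the mutant lower, for 6 of the 10 (the 4 enzymes with Dhps and Dohh), beside 20.3% of all tested genes. With the mutant higher this held for 0 of the 10, beside 18%, and in either direction for 6 of the 10, beside 38.3%. The median log2 change of the 10 genes was -0.29, beside 0.026 for all tested genes. The 4 that fell, Odc1, Amd1, Srm and Sms, were called under every one of the 15 alternative analyses. Wild type replicate 3 stood apart from the other 2 wild-type libraries on the second principal component of all genes (17.1% of the variance), and wild type replicate 2 held the erythroid RNA. Without replicate 3 the log2 changes of Odc1, Amd1, Srm and Sms were -0.93, -1.58, -1.41 and -0.52, and without replicate 2 they were -0.98, -1.75, -1.39 and -0.63.

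**Figure D1:**
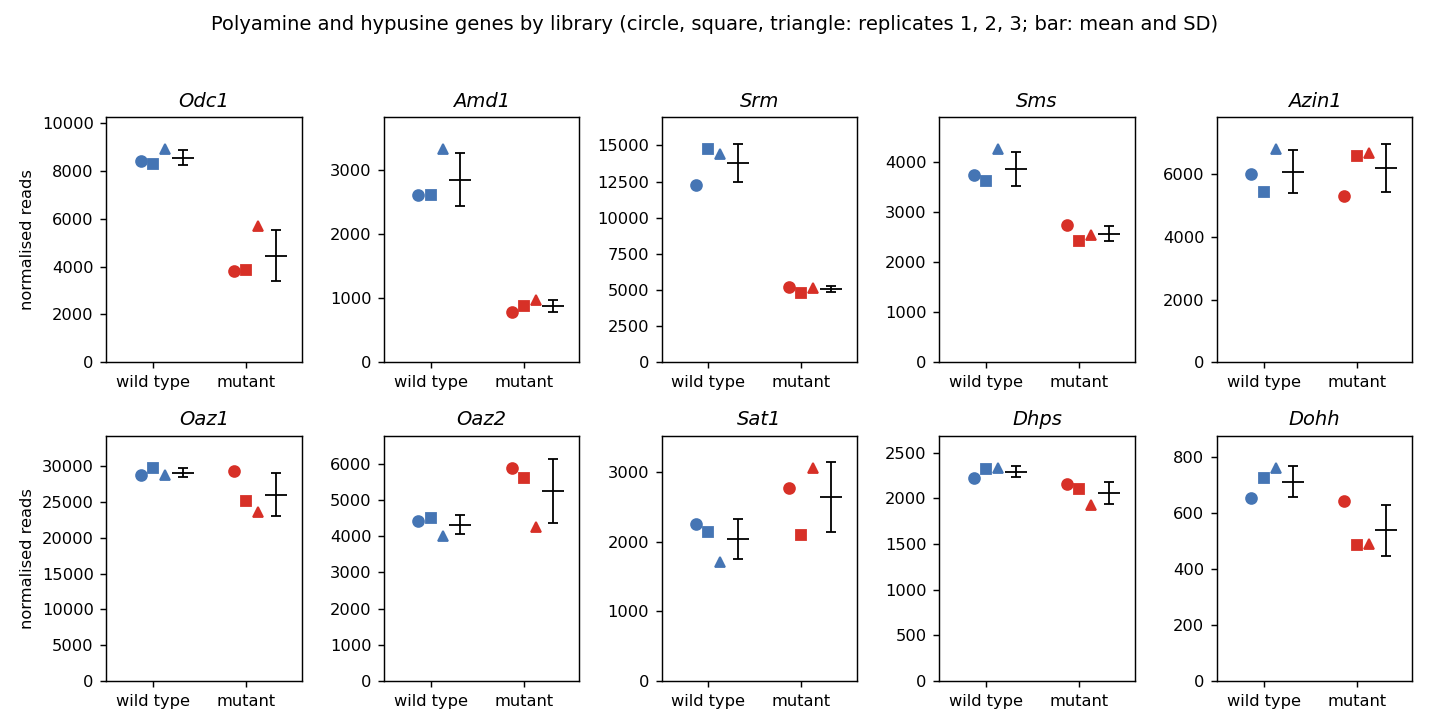
Normalised reads (vertical axes, from 0) of the 10 genes in the 3 wild-type (blue) and 3 mutant (red) libraries; circles, squares and triangles are replicates 1, 2 and 3, and black bars give the mean and SD. The mutant points of Odc1, Amd1, Srm and Sms all lie below the wild-type points, whereas those of Azin1, Oaz1, Oaz2 and Sat1 overlap them.

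Amd1, which encodes S-adenosylmethionine decarboxylase, had the largest change of the 10. It lies on chromosome 10 (GRCm38, 40287458 to 40302186, minus strand). It was at 2613, 2607 and 3318 normalised reads in wild type replicates 1 to 3 and at 779.9, 878.3 and 968.7 in mutant replicates 1 to 3. The highest mutant library thus lay far below the lowest wild-type library. The level was 3.25-fold lower (2846 ± 409 against 876 ± 94.4, SD, n = 3 each), a log2 change of -1.70 ± 0.14 (SE, 95% confidence interval -2.01 to -1.38, limma adjusted p = 0.000119). Among all tested genes 1.16% changed by as much or more in this direction. Some reads of Amd1 could belong to a near-identical gene, Amd2, which matches it at 99.6% over 3202 bases and held 211 reads over the 6 libraries, or to processed copies. The 3 listed copies together held 3.1% as many reads as Amd1.

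Srm, spermidine synthase, joins an aminopropyl group to putrescine (chromosome 4, 148591503 to 148594993, plus strand). The wild-type libraries had 12285, 14721 and 14395 normalised reads and the mutant libraries 5231, 4823 and 5135. Every mutant value lay below every wild-type value, and the 3 mutant libraries lay close together. The level was 2.73-fold lower, with a log2 change of -1.44 ± 0.10 (95% confidence interval -1.67 to -1.22, limma adjusted p = 5.63e-05).

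Odc1, ornithine decarboxylase, the highly regulated entry enzyme of the pathway, lies on chromosome 12 (17544794 to 17551505, plus strand). It had 8416, 8297 and 8890.0 normalised reads in the wild type against 3832, 3843 and 5680 in the mutant. Mutant replicate 3 stood above the other 2 mutant libraries but below every wild-type library. Odc1 was 1.92-fold lower (8534 ± 314 against 4451 ± 1064), a log2 change of -0.96 ± 0.15 (95% confidence interval -1.29 to -0.63, limma adjusted p = 0.00203). The change was -1.15 without mutant replicate 3 and -0.87 without mutant replicate 1. Odc1 has many processed copies in the mouse genome. Stretches of at least 200 bases that match it at 90% or more occur in 14 other annotated genes, 11 of them listed, which together held 22.7% as many reads as Odc1. Among these 11 genes, AW146154 alone held 11.8% as many reads as Odc1, and it matches Odc1 at 92.1% over 921 bases. Which gene its reads came from was not tested. With the reads of all 11 listed genes added, the wild-type libraries had 9669, 9417 and 11189 normalised reads. The mutant libraries then had 5119, 5054 and 7327, again without overlap.

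Sms, spermine synthase, adds the aminopropyl group that turns spermidine into spermine (chromosome X, 157443855 to 157492287, minus strand). Its normalised reads were 3747, 3621 and 4260.0 in the wild type against 2744, 2433 and 2551 in the mutant. The groups did not overlap, and the decrease was the smallest of the 4 enzymes (3876 ± 338 against 2576 ± 157, log2 change -0.59 ± 0.11, 95% confidence interval -0.83 to -0.35, limma adjusted p = 0.00513). A processed copy, Sms-ps, matches it at 100% over 1101 bases, and the 3 listed copies held 2.74% as many reads as Sms.

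The sequences before the start sites are shown because the enzymes of synthesis fell together with Myc, whose protein binds DNA at CACGTG and, less tightly, at CACGCG. Windows from 250 bases before to 50 after each start, from RefSeq on GRCm38.p6, were at hand for 8 of the 10 genes (9 windows); Srm and Azin1 had none. Both motifs were searched on both strands. Sequence outside these windows, introns further on included, was not searched, so a site there would be missed. CACGTG occurred in the 250 bases before the start for Sms alone of the 8 genes, 196 bases before it, beside 6.02% of all 32851 windows. CACGCG or its complement CGCGTG occurred 2 times for Odc1, once for Oaz1 and once before the other start of Sms, beside 7.62% of all windows. The window of Amd1 held neither. Dohh had a CACGTG just after its start, beside 7.15% of windows with one anywhere in their 300 bases. The stretches below are written 5′ to 3′ on the gene's strand, with the motifs in capitals. That of Sms is chrX:157492288-157492537 (minus strand), and that of Odc1 is chr12:17544623-17544793 (plus strand), which ends at the base before the annotated gene.
Sms: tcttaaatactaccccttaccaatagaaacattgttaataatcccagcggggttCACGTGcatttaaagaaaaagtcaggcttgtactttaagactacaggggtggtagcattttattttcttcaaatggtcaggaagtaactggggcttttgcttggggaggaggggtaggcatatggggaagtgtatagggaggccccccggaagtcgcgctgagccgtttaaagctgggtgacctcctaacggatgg
Odc1: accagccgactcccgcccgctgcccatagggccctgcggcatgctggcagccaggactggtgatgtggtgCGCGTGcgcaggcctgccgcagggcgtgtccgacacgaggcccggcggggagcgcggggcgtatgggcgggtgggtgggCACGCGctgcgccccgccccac
A match describes these letters only and is no evidence of binding. Whether these motifs bear on any change was not tested.

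The genes that control ornithine decarboxylase after translation did not pass the test in either direction (0 of 3 with limma, 0 also at an unadjusted p under 0.05 and with edgeR and DESeq2). Among all tested genes limma called 10.9% lower and 7.94% higher. Oaz1, the main antizyme (chromosome 10, 80826656 to 80829290, plus strand), had 28750, 29770 and 28836 normalised reads in the wild type against 29328, 25199 and 23623 in the mutant. Mutant replicate 1 lay within the wild-type range and the other 2 mutant libraries lay below it. The log2 change was -0.17 ± 0.10 (95% confidence interval -0.38 to 0.052, limma adjusted p = 0.264). Oaz2, a second antizyme (chromosome 9, 65668001 to 65690300, plus strand), had the higher mean in the mutant, with 4413, 4509 and 4011 normalised reads in the wild type against 5885, 5602 and 4240.0 in the mutant. Replicates 1 and 2 of the mutant exceeded every wild-type library and replicate 3 did not. Its log2 change of 0.27 ± 0.13 (95% confidence interval -0.025 to 0.56) had a limma adjusted p of 0.184, and of 0.0333 without mutant replicate 3 (log2 change 0.42). Synthesis of antizyme protein depends on a shift of the reading frame that polyamines promote, so that RNA levels do not report the amount of protein.

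Azin1, the antizyme inhibitor, is a relative of ornithine decarboxylase without its activity (chromosome 15, 38487427 to 38519266, minus strand). The wild-type libraries had 6007, 5415 and 6774 normalised reads and the mutant libraries 5290.4, 6549 and 6675. The ranges overlapped almost wholly, and the log2 change was 0.023 ± 0.12 (95% confidence interval -0.25 to 0.30, limma adjusted p = 0.917).

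Sat1, the spermidine and spermine acetyltransferase of polyamine breakdown, lies on chromosome X (155213132 to 155216449, minus strand). It had 2257, 2138 and 1707 normalised reads in the wild type against 2769, 2087 and 3057 in the mutant. Mutant replicates 1 and 3 exceeded every wild-type library, and mutant replicate 2 lay inside the wild-type range. The mean was 1.30-fold higher (2034 ± 289 against 2638 ± 498), with a log2 change of 0.37 ± 0.16 (95% confidence interval 0.0050 to 0.73) that did not pass (limma adjusted p = 0.145, and 0.0532 to 0.365 on leaving out 1 library). Sat1 and Sms are X-linked and the labels give no sex. Xist, the noncoding RNA of the inactive X, was not listed, and the 4 Y-linked genes examined (Ddx3y, Uty, Kdm5d and Eif2s3y) had reads in all 6 libraries, summing to 14084 to 16832 normalised reads in the wild type against 13554 to 17389 in the mutant.

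For the enzymes of hypusine the mutant libraries had the lower values, but neither change passed the test. Deoxyhypusine synthase, Dhps, transfers the aminobutyl part of spermidine to eIF5A (chromosome 8, 85071757 to 85075162, plus strand). It had 2222, 2319 and 2336 normalised reads in the wild type against 2154, 2102 and 1930 in the mutant. The libraries did not overlap, but the difference was small (log2 change -0.15 ± 0.10, 95% confidence interval -0.39 to 0.079, limma adjusted p = 0.334). Dohh, which hydroxylates the new residue (chromosome 10, 81384428 to 81388352, plus strand), had 653.2, 724.8 and 762.5 normalised reads in the wild type against 644.8, 485.3 and 488.8 in the mutant. Mutant replicate 1 lay just below the lowest wild-type library, and the other 2 were well below. Its log2 change was -0.41 ± 0.16 (95% confidence interval -0.77 to -0.055, limma adjusted p = 0.103, and 0.0427 without mutant replicate 1). Of these enzymes 0 of 2 were called by limma, edgeR or DESeq2, and 1 was lower at an unadjusted p under 0.05. Among all tested genes limma called 10.9% lower, and 17.5% were lower at that unadjusted p. Both genes overlap others in the annotation. Dhps shares 128 bases with Wdr83 on the other strand, and the library kit does not record strand. Dohh shares 3887 bases with the gene model Gm48551 on the same strand. Gm48551 held 5.57% as many reads as Dohh, and how reads of the shared stretch were counted is not given.

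Eif5a, the substrate of these enzymes, fell in the mutant. It was the most abundant transcript of the pathway by read number, at 97283, 105835 and 111301 normalised reads in the wild type against 66181, 56649 and 56728 in the mutant. It was 1.75-fold lower with no overlap (log2 change -0.81 ± 0.10, 95% confidence interval -1.03 to -0.59, limma adjusted p = 0.000652). Its paralogue Eif5a2, at 428 ± 31.7 normalised reads in the wild type against 273 ± 58.2 in the mutant, fell as well (log2 change -0.66 ± 0.19, limma adjusted p = 0.0384). With edgeR Eif5a2 did not pass (adjusted p = 0.0576), nor with limma when a library other than mutant replicate 3 was dropped (adjusted p 0.0736 to 0.131).

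**Figure D2:**
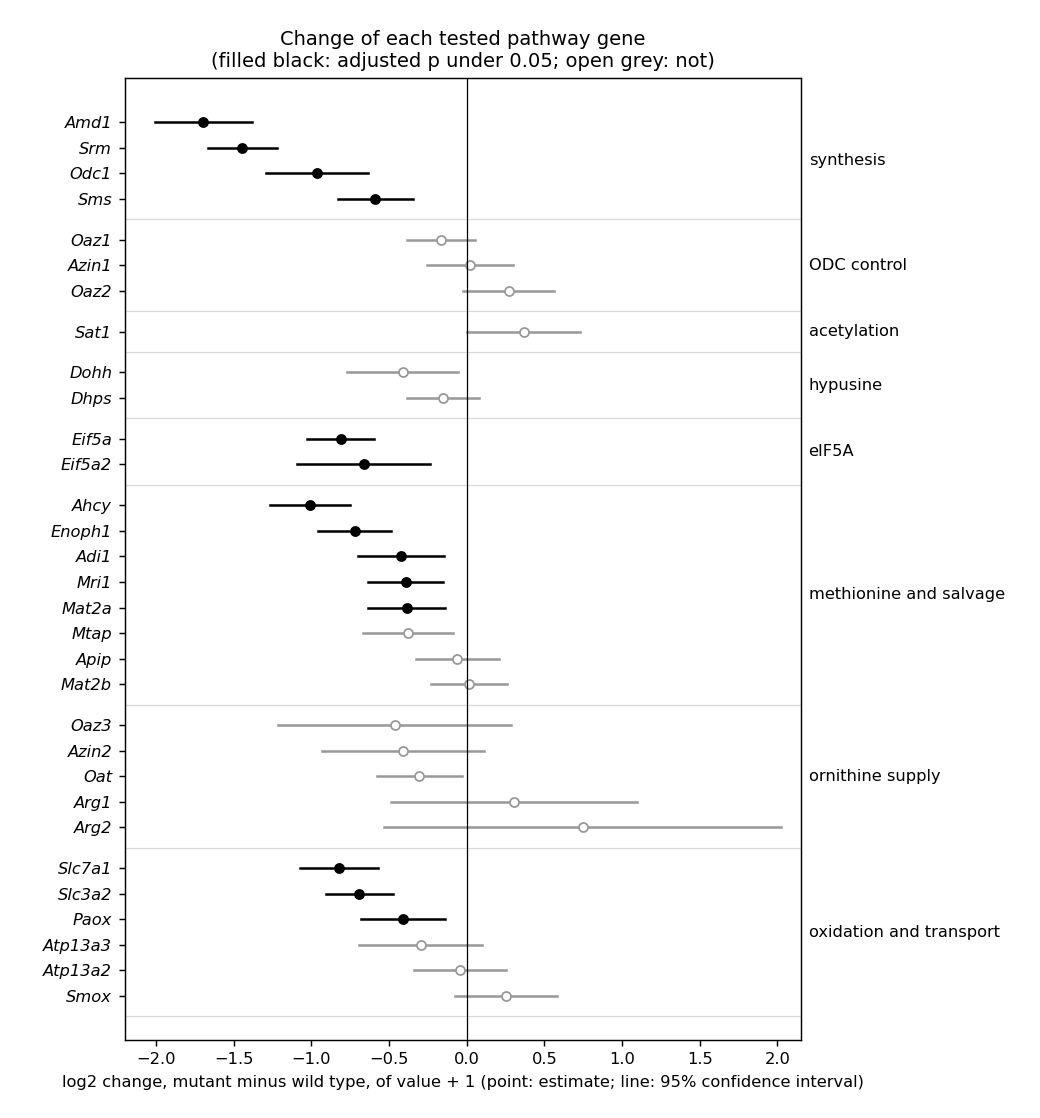
Log2 change, mutant minus wild type, of value + 1 for the 10 genes and the 21 other tested genes of the pathway, grouped by role; points are limma estimates, lines 95% confidence intervals, filled black where the adjusted p was under 0.05 and open grey otherwise. The 4 synthesis enzymes span -1.70 to -0.59, and no interval of a called gene reaches 0.

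Changes of linked genes were compared through their ratio within each library, which does not depend on how libraries are scaled. With 3 libraries against 3 the exact permutation test cannot give a two-sided p below 0.1, so none of the 8 ratios could pass, and adjusted over the 8 the smallest value was 0.133. The Odc1 to Oaz1 ratio was 0.293, 0.279 and 0.308 in the wild type against 0.131, 0.152 and 0.240 in the mutant, so that the mutant libraries lay lower without overlap (difference in log2 ratio -0.80, exact p = 0.1). The Odc1 to Azin1 ratio was 1.401, 1.53 and 1.31 in the wild type against 0.724, 0.587 and 0.851 in the mutant, on either side of an equal number of reads (difference -0.99, exact p = 0.1). The Azin1 to Oaz1 ratio overlapped between genotypes (difference 0.19, exact p = 0.5).

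The ratio of the synthetic enzyme Odc1 to the catabolic Sat1 differed most. It was 3.73, 3.88 and 5.21 in the wild type against 1.38, 1.84 and 1.86 in the mutant (difference in log2 ratio -1.33, exact p = 0.1). The Srm to Sms ratio was lower in every mutant library than in any wild-type library. It was 3.28, 4.07 and 3.38 in the wild type against 1.91, 1.98 and 2.01 in the mutant (difference -0.86, exact p = 0.1). The ratio of the antizymes, Oaz1 to Oaz2, was 6.51, 6.60 and 7.19 in the wild type against 4.98, 4.50 and 5.57 in the mutant (difference -0.44, exact p = 0.1). The log2 ratio of Dhps to its substrate Eif5a was higher in all 3 mutant libraries (difference 0.66, exact p = 0.1), whereas Dhps to Dohh overlapped (0.26, exact p = 0.2).

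**Figure D3:**
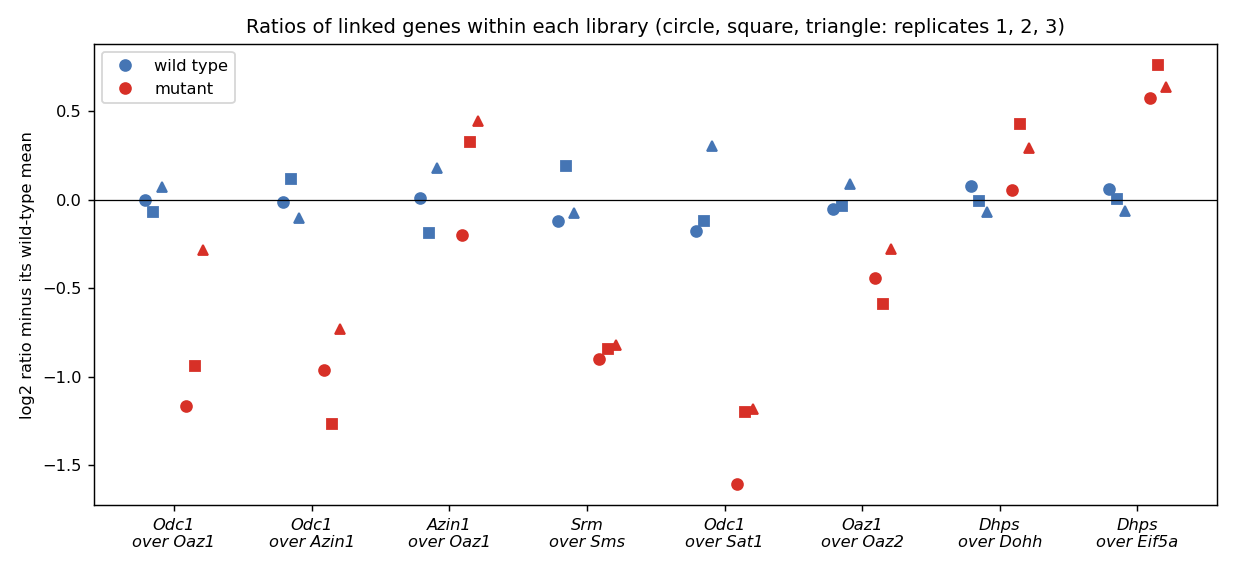
Log2 ratio of the normalised reads of linked genes in each library, drawn as the distance from the mean of the wild-type libraries; blue is wild type, red is mutant, and circles, squares and triangles are replicates 1, 2 and 3. The red points of 4 ratios with Odc1 or Srm above the line and Oaz1, Azin1, Sat1 or Sms below it lie under all blue points, with mean differences from -1.33 to -0.80.

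To compare genes with each other, levels were divided by the length of all annotated exons. In the wild type Oaz1 was highest at 11383 ± 221 normalised reads per kb, followed by Srm at 8630.4 ± 827 and Odc1 at 2506 ± 92.1. Oaz2 (1442 ± 88.4) came next. From there the order was Dhps (986 ± 26.5), Azin1 (969.6 ± 109), Amd1 (803 ± 115), Sat1 (733 ± 104) and Sms (645 ± 56.3), in which each gene overlapped the next, and Dohh was lowest at 348 ± 27.1. The place of Dohh is uncertain in both genotypes, since the counting of reads in the stretch shared with Gm48551 is not known. In the mutant Srm stayed in the second place at 3166 ± 133, Odc1 (1307 ± 312) overlapped Oaz2 (1753 ± 294), and Amd1 (247 ± 26.7) was the lowest of the 10, overlapping Dohh (263 ± 44.5). Azin1 (986 ± 122), Sat1 (951 ± 180) and Dhps (887 ± 50.5) overlapped each other, and Sms followed at 429 ± 26.1.

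**Figure D4:**
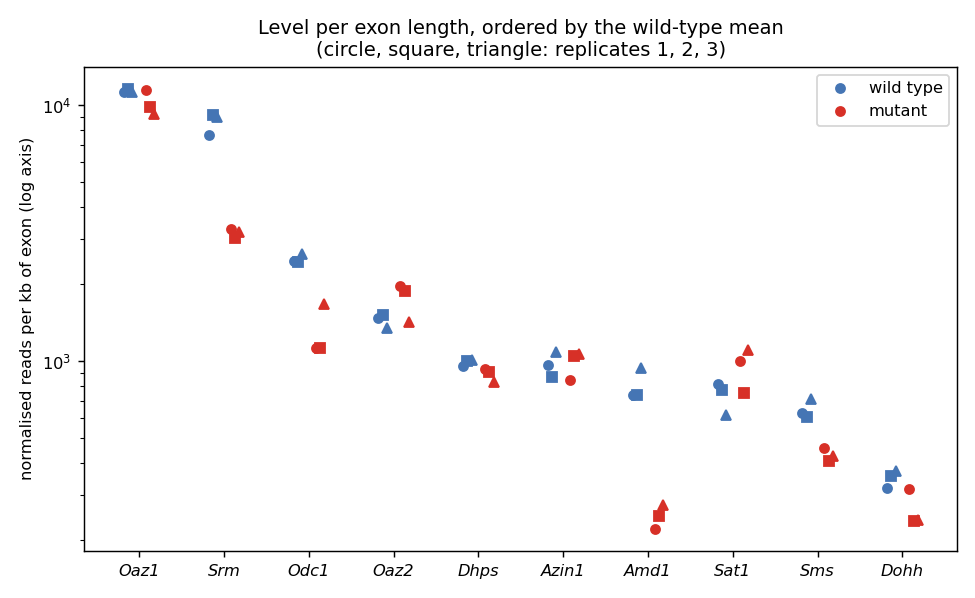
Normalised reads per kb of annotated exon (log axis) of the 10 genes in each library, ordered by the wild-type mean; blue is wild type, red is mutant, and circles, squares and triangles are replicates 1, 2 and 3. Amd1 went from 803 to 247 per kb and so to the lowest place, while Oaz1 and Azin1 had levels that overlap the wild type.

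Genes that supply the pathway or handle its products were taken from a list of 25, of which 22 were listed and 21 tested. Among these 10 fell and 0 rose (median log2 change -0.39), beside the 10.9% and 7.94% of all tested genes called lower and higher. At an unadjusted p under 0.05 limma gave 12 lower and 0 higher, beside 17.5% and 15.9% of all tested genes. With edgeR 9 were lower and 0 higher, beside 10.2% and 8.2%, and with DESeq2 11 and 0, beside 13.3% and 11.1%. The genes Ahcy, Enoph1, Slc3a2, Slc7a1 and Eif5a were called under all 15 alternatives. The other 5 (Mat2a, Mri1, Adi1, Paox and Eif5a2) depended on the libraries, since 5 genes were called without wild type replicate 2, without wild type replicate 3 or without mutant replicate 2, and 6 were called with equal library totals.

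Amd1 draws on S-adenosylmethionine, and the 5′-methylthioadenosine left by Srm and Sms is recycled to methionine. In this group 5 of 8 tested genes fell and 0 rose, beside 10.9% and 7.94% of all tested genes. Ahcy and Enoph1 were called under all 15 alternatives, and Mat2a, Mri1 and Adi1 were not. Ahcy, which clears S-adenosylhomocysteine, was at 3635, 3655 and 3143 normalised reads in the wild type against 1828, 1785 and 1576 in the mutant, without overlap (2.01-fold lower, log2 change -1.01 ± 0.11, limma adjusted p = 0.000487). Mat2a, the catalytic subunit of the enzyme that makes S-adenosylmethionine, fell by less (log2 change -0.38 ± 0.11, limma adjusted p = 0.0372), and its regulatory subunit gene Mat2b was at 0.016 ± 0.11. Of the salvage enzymes Enoph1 fell 1.65-fold (log2 change -0.72 ± 0.11, limma adjusted p = 0.00163). The log2 changes of Mri1 and Adi1 were -0.39 ± 0.11 and -0.42 ± 0.12 (limma adjusted p = 0.0321 and 0.0412). Mtap, which opens the salvage route, had 8133, 7645 and 10074 normalised reads in the wild type against 5713, 7106 and 7033 in the mutant. These did not overlap, but the change did not pass (-0.38 ± 0.13, limma adjusted p = 0.071), although DESeq2 called it (adjusted p = 0.0441). Apip was at -0.061 ± 0.12.

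The list of ornithine supply also held Azin2 and Oaz3, paralogues of the genes that control ornithine decarboxylase. In this list 0 of 5 tested genes were called with limma, edgeR or DESeq2, and 1 was lower at an unadjusted p under 0.05. Among all tested genes limma called 10.9% lower and 7.94% higher, and 17.5% were lower at that unadjusted p. The arginases that make ornithine were barely expressed, with 31.2 ± 6.46 normalised reads of Arg1 in the wild type against 38.4 ± 4.11 in the mutant, and 9.13 ± 2.32 and 17.0 ± 7.52 of Arg2. Oat, ornithine aminotransferase, was the abundant gene of this group at 4228 ± 651 and 3392 ± 66.5 normalised reads (log2 change -0.31 ± 0.12, limma adjusted p = 0.111, and 0.0466 without wild type replicate 1). The paralogues Azin2 and Oaz3 were low, at 260 ± 64.0 and 48.7 ± 6.57 normalised reads in the wild type.

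Among the genes of oxidation and transport 3 of 6 tested genes fell and 0 rose, beside 10.9% and 7.94% of all tested genes. The cationic amino acid carrier gene Slc7a1, which imports arginine and ornithine, was 1.76-fold lower (2665 ± 102 against 1513 ± 138, log2 change -0.82 ± 0.11, limma adjusted p = 0.00117). Slc3a2, the heavy chain of amino acid exchangers, was 1.61-fold lower (5930 ± 304 against 3673 ± 211, log2 change -0.69 ± 0.10, limma adjusted p = 0.0013). Paox, the oxidase that acts on acetylated polyamines, changed by -0.41 ± 0.12 (limma adjusted p = 0.0424), and did not pass in any of the 6 fits that dropped a library (0.057 to 0.128). Smox, the spermine oxidase, had overlapping values and a change of 0.25 ± 0.15 (limma adjusted p = 0.257). The polyamine exporter of lysosomes Atp13a2 was at -0.044 ± 0.13. Its relative Atp13a3 had 5797, 5784 and 9331 normalised reads in the mutant against 7294 to 8983 in the wild type, so that mutant replicate 3 alone stood above the wild type (limma adjusted p = 0.275, and 0.0198 without that library). The same library had the highest Odc1 value of the mutant.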

How the data were processed

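DN3 thymocytes of 3 wild-type and 3 mutant libraries were profiled by RNA sequencing after full-length cDNA amplification from low input, per the labels' protocols. STAR 2.5.3, featureCounts, DESeq2 1.20.0, mm10 and GRCm38 are named in the submitters' processing notes; the release of the annotation and the options of counting were not given in the sources used here. Each deposited value is a signal per gene, that is, reads divided by a size factor of the library. This was settled from the values, since 100.0% of 126810 values were whole multiples of 1 step per library within 0.1 reads. No library repeated another of its group (chi-square of their reads over its degrees of freedom, 26.7 to 55.3).

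Symbols, positions and exon lengths came from GENCODE M21 on GRCm38, which named 21100 of 21135 genes. The main test was limma 3.58.1 (R 4.3.3; lmFit and eBayes with a trend), two-sided, on log2(value + 1) of the 17815 genes whose mean reached 10, with Benjamini-Hochberg adjustment at 0.05. Log2 changes are mutant minus wild type on that scale, with standard errors of the fit; levels have SDs. P-values set the difference between genotypes against the spread between libraries of a genotype, which may be technical. Alternatives were other scalings, pseudocounts and filters, edgeR 4.0.16 and DESeq2 1.42.0 on recovered reads, a replicate block, and leaving out each library. The methods were also run on simulated counts with known changes, and the outcome is not reported here. Copies were found with blastn 2.17.0 at 90% identity over at least 200 bases. The genes, lists, ratios and motifs were chosen with earlier results of these data known; CACGCG and the printing of Odc1's window were chosen after these values were seen. All 10 genes and the tested genes of the pathway list could be named.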

Additional observations from a re-analysis of the deposited data

How the results depend on the processing

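The 4 synthesis enzymes were called lower in all 15 alternatives, and the members called lower numbered 4 to 5 on leaving out 1 library (Dohh joined without mutant replicate 1). Members called higher numbered 0 to 1 on leaving out 1 library, the 1 being Oaz2 without mutant replicate 3, and 0 in all other alternatives. Other pathway genes called lower dropped from 10 to 6 with equal library totals and ranged from 5 to 8 on leaving out 1 library. All genes called ranged from 1905 (without wild type replicate 2) to 2788 on leaving out 1 library, beside 3352 with all. On recovered reads edgeR called 1823 genes lower and 1460 higher, and DESeq2 2272 and 1896. Equal totals turned the split of all calls from 1938 lower and 1414 higher to 1647 lower and 1827 higher. Genes near no change altered sign: Azin1 ranged from -0.056 to 0.13 on leaving out 1 library (negative in 3 of 6 cases), Mat2b from -0.033 to 0.11 (negative in 3 of 6), and Atp13a2 from -0.16 to 0.035 (positive in 2 of 6) and 0.016 with equal library totals; the cause was not tested. All 8 ratios kept their direction in the alternatives run for them.

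The replicate numbers showed no sign of pairing the libraries. Deviations from the group means of same-numbered libraries correlated at -0.02, -0.07 and -0.01 across genes, beside -0.064 to 0.096 for differently numbered libraries. These values cannot settle whether libraries were handled in pairs. With the replicate number as a block, 3066 genes were called, 4 members and 6 other pathway genes were lower, and 0 of either were higher. Levels near 10 normalised reads, such as those of Arg2, limit what can be said of them.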
